A study of Caenorhabditis elegans with 3 samples.

Results

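Autosomal intronic binding regions of MEP-1 are described here: 691 regions on the 5 autosomes of Caenorhabditis elegans whose point source (the base at which the authors' caller placed the peak) lay inside the body of a protein-coding gene, in no exon or UTR, and outside 500 bp upstream to 100 bp downstream of every annotated start of a protein-coding gene or tRNA gene. They were taken from the 5229 regions of the authors' final list, in which ranks agreed between replicates by the irreproducible discovery rate (IDR). The list had 5209 regions on nuclear chromosomes and 4133 on autosomes, so the intronic regions made up 16.7% of the autosomal ones. All of them are described, with no filter on low values. The other autosomal regions were 1825 in promoter windows, 1266 intergenic, 257 in exons or UTRs and 94 at tRNA gene starts. The 691 rows covered 682 distinct intervals, because the list gives some intervals more than 1 point source.

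The data are chromatin immunoprecipitation followed by sequencing (ChIP-seq) of MEP-1 fused to GFP, in 1 group of 3 biological replicates, numbered 1 to 3 in the labels. The animals were whole L4 larvae (the last larval stage) of mixed sex, of strain OP102, which carries the mutation unc-119(tm4063) on chromosome III and the insertion wgIs102 that targets mep-1. Every sample carries both, no other genotype or stage was analysed here, and nothing in the labels says whether the replicates came from separate cultures. Each p-value therefore speaks for these samples alone. It shows only whether their values lay on the same side, not how far they spread. Replicates 1 and 2 came from one stock source, the CGC, and replicate 3 from another. In whole animals, binding in few cells and weak binding in many cells cannot be told apart.

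MEP-1 is a zinc-finger protein of the nucleus. It acts with LET-418, a Mi-2 type chromatin remodeller, and HDA-1, a histone deacetylase, in a complex that keeps germline genes off in somatic cells, and in the germline it associates with PIE-1. Most worm introns are very short, and the few long ones can hold enhancers, alternative gene starts and small non-coding RNA genes.

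Stretches of 30 bases from 12 regions follow, because the words in capitals were the most over-represented ones in the intronic regions: the 10 highest regions on chromosomes II to V that were found in all 3 replicates, then the highest regions of ell-1 and sea-2. All are on the plus strand of build ce11 (assembly WBcel235), read 5′ to 3′ from the RefSeq genome sequence. Capitals mark a match on either strand to any of 5 words of 6 bases: the word CGTCTC, the word AGAGAG, the word GAGAGA, the word GGCGCC or the word AGAGAC. Each stretch was placed within 50 bp of the point source so as to hold as many of these words as it could, so that some lie beside the point source; where no word lay within 50 bp it was centred on it. A word was held by 7 of the 12, and 5 held none, 4 of them among the 10 highest.
Y111B2A.12 at chrIII:12612644-12612673: ctacaactggtcactcgatgtctgCGTCTC
W06H8.6 at chrV:6224635-6224664: GAGACGcaggcaaaggccaccacagacctc
dhc-4 at chrIII:10989642-10989671: tgcccctatataaacagcccctacccgcta
epg-9 at chrIV:2602163-2602192: GTCTCTttgcctgtctgCGTCTCctccgta
pqn-41 at chrIII:1925311-1925340: gtgtgtgtgtgtgtgtgccaccgggcttca
zfp-1 intron 9 at chrIII:8802105-8802134: actctgCGTCTCTtttgcgcaatcGAGACG
F58G1.7 at chrII:12944769-12944798: aactacccagtgctttccggaaatttcaag
zfp-1 intron 4 at chrIII:8795870-8795899: agaaatagaacagcctgaagaggtgttaga
larp-1 at chrIII:5014160-5014189: taatcgaccaacacatttatattTCTCTCT
miz-1 at chrIV:10821849-10821878: AGAGACtgagagtgtatttctttttgctgt
ell-1 at chrIV:4406163-4406192: tgtgcaaatgcgctctgttgagcggtggag
sea-2 at chrII:3958833-3958862: CTCTCTCatcttttttgtcggtttttctgt

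Those words were common across the intronic regions. Of the 691 windows reaching 50 bp to each side of their point sources, 51.8% held at least 1 of the 5 words, against 8.86% of 193114 windows of the same length tiling the eligible intron sequence, which is the intron sequence where a region could count as intronic. Of the eligible windows from introns of 2000 bp or more, 12.3% held at least 1. The words were picked as the most over-represented in these same 691 windows, so an excess follows from the choice. In the replicates' own intronic regions the share was 50.1%, 44.5% and 48.0% in replicates 1, 2 and 3. The GA-repeat word GAGAGA stood in 34.7% of the intronic regions' windows and in 4.15% of eligible windows, and the replicates gave 35.4%, 30.2% and 31.1%. In eligible windows from introns of 2000 bp or more it stood in 6.32%. The word CGTCTC was the most over-represented word held by at least 20 windows, in 19.4% against 2.07%. The word AGAGAG was in 29.7% against 3.52%, the word AGAGAC in 21.3% against 2.75%, and the palindrome GGCGCC in 4.92% against 0.625%. These are not separate observations: the 3 GA words overlap each other, and the reverse complement of the word CGTCTC shares its first 5 bases with the last 5 of the word AGAGAC.

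The words were also frequent in regions outside introns. Intergenic regions held at least 1 of the 5 in 52.2% and promoter regions in 37.1% of their windows. GAGAGA was in 36.3% of intergenic and 21.9% of promoter windows. Base composition moved with them: the intronic regions' windows averaged 44.04% G and C, against 32.7% in eligible windows and 34.3% in those from introns of 2000 bp or more, and promoter regions averaged 44.02%. Within classes of equal base composition the GA word was also more frequent at the intronic regions, least clearly in the lowest class. Below 30% G and C it was in 8.33% of their windows (5.88%, 9.18% and 2.17% in replicates 1, 2 and 3) against 1.89% of eligible windows, from 30% to 40% in 29.9% against 4.49%, from 40% to 50% in 40.5% against 7.64%, and at 50% or more in 37.8% against 10.8%. The word GGCGCC was less even across these classes. From 30% to 40% it was in 0% of the intronic regions' windows against 0.430% of eligible windows. From 40% to 50% it was in 5.38% against 1.35%, with 1.65%, 2.38% and 3.66% in replicates 1, 2 and 3. At 50% or more it was in 10.6% against 5.44%. A match says only that the letters are present in the window.

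**Figure D1:**
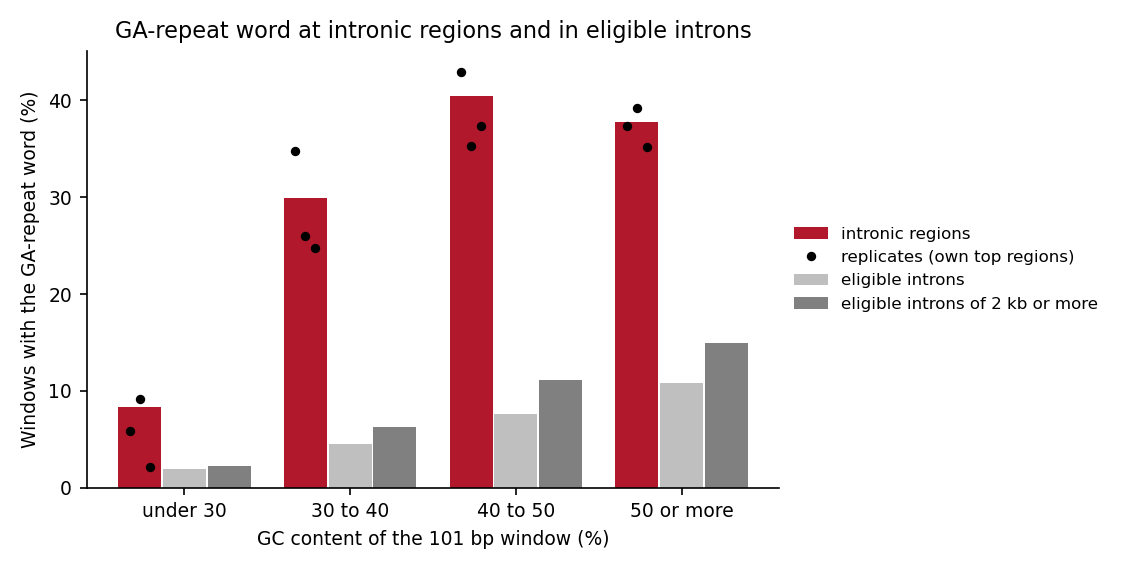
Share of windows (percent) that hold the GA-repeat word on either strand, by the G and C content of the window, for the intronic regions (red bars, with a black point for each replicate's own regions) and for all eligible introns and those of 2000 bp or more (grey bars). In every class the intronic regions lie above the eligible windows, from 8.33% against 1.89% in the lowest class to 37.8% against 10.8% in the highest.

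Intronic regions were sparse for the sequence available to them. Eligible intron sequence came to 25.4 Mb, or 30.8% of the autosomes, and held 27.2 regions per Mb. Intergenic sequence held 54.4 per Mb, promoter windows 149.3 and exons 11.9. The ratio of intronic to intergenic density was 0.50 in the IDR list. It was 0.50, 0.53 and 0.51 in replicates 1, 2 and 3, each taken over its own 5167 highest-scoring distinct regions, the number of distinct intervals in the IDR list (two-sided exact sign-flip permutation test over 3 replicates, p = 0.25). That is the smallest p this test can give with 3 replicates, so it cannot reach 0.05, and the spread between replicates is the measure of error. Those replicate lists held 663, 686 and 679 autosomal intronic regions. On chromosome X, whose introns are outside the set, the same definition gave 162 regions and 32.3 per Mb.

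Long introns held most of the regions. The 518 introns that held a region had a median length of 2447 bp, with quartiles of 818.75 and 5374 bp, against a median of 68 bp over all 80066 eligible introns. Counted by region, so that an intron with several counts several times, the median was 3402 bp, with quartiles of 1153.5 and 7248 bp and a range from 46 to 21230 bp, and the middle of the eligible bases fell in an intron of 943 bp. In the replicates' own lists the median by region was 3353, 3063 and 3389 bp. Density climbed with length: 10.9 regions per Mb in introns under 500 bp, 12.6 from 500 to under 1000 bp, 17.1 from 1000 to under 2000 bp, 45.6 from 2000 to under 4000 bp, 68.4 from 4000 to under 8000 bp and 87.6 in introns of 8000 bp or more. The ratio of the longest class to the shortest was 8.04, and averaged 7.35 ± 1.21 over the replicates (SD, n = 3). Requiring the whole region to lie outside exons raised it to 42.8, since a region of the median width of 404 bp rarely lies whole inside an intron under 500 bp. Of introns under 500 bp, 80 of 64835 held a region (0.123%), against 66 of 191 introns of 8000 bp or more (34.6%).

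**Figure D2:**
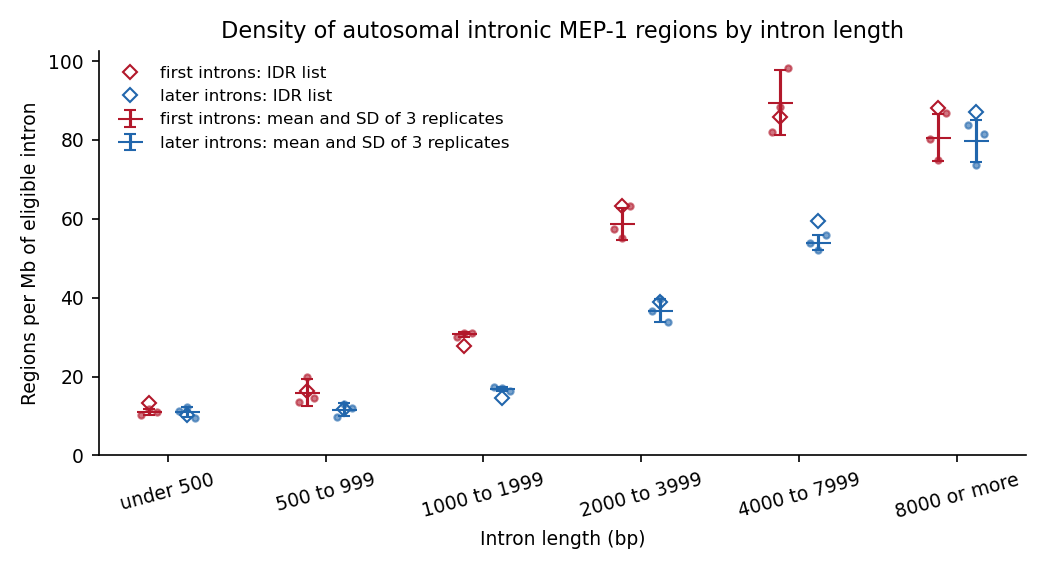
Intronic regions per Mb of eligible sequence by intron length (bp), for first introns (red) and later introns (blue): diamonds give the IDR list, points the 3 replicates, and bars their mean and SD. In the IDR list density climbs with length in both, and in the replicates first introns of 8000 bp or more are less dense than those of 4000 to under 8000 bp. From 500 to under 8000 bp first introns lie above later ones in the IDR list and in each replicate. At 8000 bp or more they are close in the IDR list (88.1 against 87.2 per Mb). Under 500 bp first introns lie above in the IDR list (13.3 against 10.4 per Mb) but below in replicates 1 and 2.

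First introns were over-represented. They held 252 of the 691 regions, 36.5%, and 22.6% of eligible bases, a ratio of 1.61. The replicates gave ratios of 1.55, 1.56 and 1.69 (two-sided exact sign-flip permutation test over 3 replicates, p = 0.25, the smallest possible). Introns of rank 2 held 125 regions, of rank 3 held 68, of rank 4 held 72, and of rank 5 or more held 174. Where transcripts of a host differ, the rank is that in its longest transcript; taking the lowest rank in any transcript put 53.5% of regions and 31.0% of bases in first introns.

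The difference varied with intron length and with distance from a start. In introns of 4000 to under 8000 bp first introns held 85.8 regions per Mb and later introns 59.6, and the replicates averaged 89.5 ± 8.15 in first and 53.9 ± 1.88 in later introns (SD, n = 3). In introns of 8000 bp or more the replicates averaged 80.6 ± 5.93 in first and 79.7 ± 5.28 in later introns, a difference smaller than their spread. First introns of that length were less dense than those of 4000 to under 8000 bp in 3 of 3 replicates, while the IDR list had 88.1 per Mb. Close to a start the difference was small: under 1000 bp from the nearest protein-coding start, first introns held 27.1 and later introns 25.3 per Mb, with replicate means of 28.4 ± 3.12 in first and 24.7 ± 1.97 in later introns (SD, n = 3). First introns were the denser in 3 of 3 replicates there, with 24.8, 30.3 and 30.02 in first against 22.5, 26.3 and 25.3 per Mb in later introns. Farther out, first introns were denser, with 71.8 against 23.7 per Mb from 1000 to under 2000 bp, 78.7 against 21.6 from 2000 to under 4000 bp, and 94.8 against 15.97 at 4000 bp or more. The last class held 18 regions in first introns and 50 in later ones. These distance classes were not matched for intron length, with which density also climbed. The part of length in these differences was not tested.

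Within introns of 1000 bp or more, the regions leaned to the middle. Cutting each intron into 3 equal parts, the 5′ part held 170 regions, the middle part 216 and the 3′ part 151, which is 39.7, 51.8 and 40.6 per Mb of eligible sequence. Of the 691 point sources, 71 lay within 100 bp of a splice site, and the share of eligible bases that close was not counted. Many lay upstream of another start of the same host: 436 of them, 63.1%, had a further annotated start of the host downstream, against 25.8% of eligible bases. In introns of 2000 bp or more these shares were 80.8% of regions and 59.9% of bases, with a replicate mean of 80.5% ± 0.87 (SD, n = 3). A further start within 1000 bp downstream was found for 13.3% of regions and 4.62% of eligible bases.

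Regions were denser in the centres of chromosomes than in the outer parts. The 5 autosomes held 141, 156, 157, 138 and 99 intronic regions on chromosomes I, II, III, IV and V, and their densities were 25.4, 36.4, 31.9, 26.7 and 18.1 per Mb in that order. Cutting each chromosome into 3 equal parts, the middle parts held 308 regions, 44.2 per Mb, and the outer parts 383, 20.8 per Mb. The ratio was 2.13 in the IDR list, and 2.08, 2.06 and 2.01 in replicates 1, 2 and 3. Introns of 2000 bp or more showed the same direction, with 99.3 per Mb in the middle parts and 49.4 in the outer parts.

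The scores of intronic regions had a lower median than those of promoter regions and, by less, of intergenic regions. The score is the authors' signal value, which ranks regions within 1 list. Its median was 94.5 over the intronic regions, with a range from 62.2 to 551.7, against 118.1 over promoter and 102.2 over intergenic regions; exonic regions had the lowest median, 86.2. The difference of median log2 score was −0.32 from promoter regions in the IDR list and −0.31, −0.29 and −0.21 in the replicates' own lists. From intergenic regions it was −0.11, and −0.08, −0.14 and −0.10 in the replicates. This second difference shrank to −0.02 among regions found in all 3 replicates, −0.04 in the upper part of the list by score, −0.06 with whole regions outside exons and −0.07 without replicate 2, and widened to −0.21 with a narrow promoter window (200 bp upstream). The difference from promoter regions was −0.18 in the upper part by score. Both differences were negative in 3 of 3 replicates (two-sided exact sign-flip permutation test, p = 0.25 for each, the smallest possible). Among the 500 highest regions of the whole list stood 45 of the intronic regions (6.51%), against 9.15% of all autosomal regions. Among the highest 100 stood 3, where the share of all autosomal regions was not counted.

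**Figure D3:**
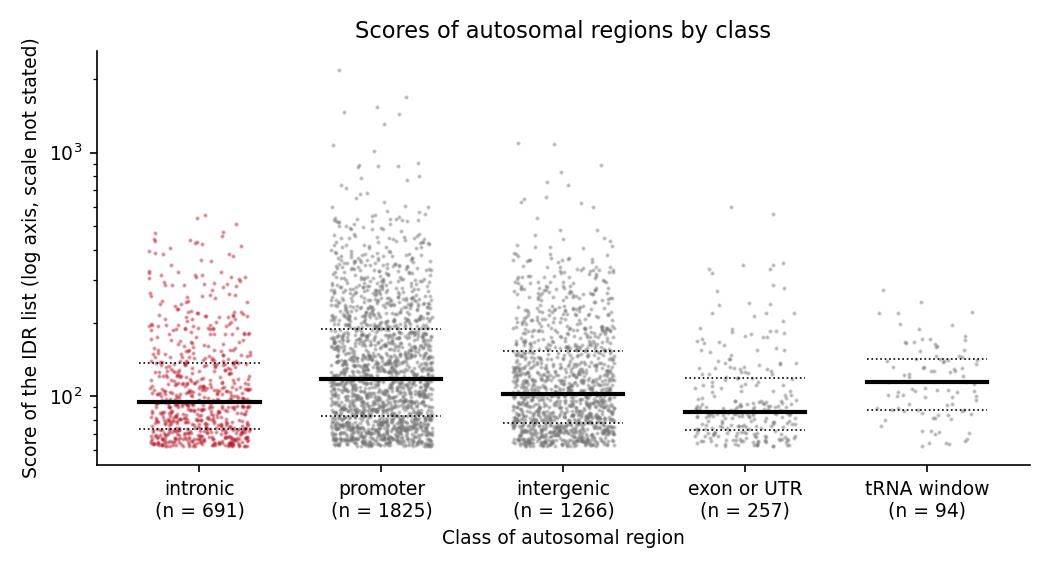
Score in the IDR list (log axis) of each autosomal region, by class, with the median as a thick line and the quartiles as dotted lines. The intronic median of 94.5 lies below the promoter median of 118.1 and the intergenic median of 102.2, and the classes overlap over most of their range.

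Detection in single replicates followed the score. A region was counted as found in a replicate when it overlapped, by at least 1 bp, any of that replicate's 5167 highest regions. By this count 367 of the 691 intronic regions (53.1%, Clopper-Pearson 95% interval 49.3% to 56.9%) were found in all 3 replicates, against 60.4% of all autosomal regions, 66.1% of promoter and 59.2% of intergenic regions. A further 211 were found in 2 replicates, 105 in 1 and 8 in none. In replicates 1, 2 and 3 singly, 79.9%, 81.2% and 74.5% of the intronic regions were found, against 84.6%, 83.3% and 76.7% of all autosomal regions. In the longer relaxed lists of 30000 regions each, 671 of the intronic regions overlapped a region in all 3. The same count was not made for other autosomal regions, so it shows nothing particular to the intronic ones.

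The shortfall was small among regions of like score. When all autosomal regions were cut into 4 equal groups by score, the share found in all 3 replicates was 9.17% of intronic, 8.57% of promoter and 8.84% of intergenic regions in the lowest group. In the next it was 42.0%, 44.1% and 46.9%, then 91.6%, 90.5% and 89.2%, and in the highest group 99.2%, 99.1% and 98.6%, always in that order of classes. The interval covers counting error only, and neighbouring regions are not independent.

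Hosts were few. The 691 regions lay in 453 genes, 2.77% of the 16331 autosomal protein-coding genes with any eligible intron sequence, and in 518 introns. Of the hosts, 336 held 1 region, 62 held 2 and 55 held 3 or more, and those 55 held 231 regions. Up to 8 regions lay in 1 intron, and 95 introns held 2 or more. Hosts were long genes, with a median body of 8425 bp against 2067 bp for eligible genes.

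Host genes were also more often bound at a start of their own. A point source lay in the promoter window of 143 of 453 hosts (31.6%), against 12.6% of eligible genes, and the replicates averaged 29.8% ± 0.77 (SD, n = 3). The difference held among genes with like amounts of eligible intron: with under 1 kb, 27.8% of hosts against 11.8% of other genes, from 1 to 3 kb 37.7% against 10.9%, from 3 to 10 kb 32.1% against 15.9%, and above 10 kb 25.7% against 14.9%. Counting only the outermost start of a gene, the share was 19.6% of hosts against 11.5% of eligible genes. It also depended on the set of regions, at 61 of 305 hosts (20%) against 9.36% of eligible genes without replicate 2 and 17.5% against 7.60% in the upper part of the list by score.

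The 5 genes with the most regions were ppfr-1 with 9, ell-1 and sea-2 with 8 each, and zfp-1 and daf-5 with 7 each. Counted by distinct interval, ell-1 and sea-2 had 8, ppfr-1 7, daf-5 6, as did T28B11.1, ercc-1, pkg-2 and vhp-1, and zfp-1 5. ppfr-1 encodes a regulatory subunit of protein phosphatase 4. Its 9 regions, on chromosome I, lay in introns 4 and 5, of 5374 and 10404 bp, with scores from 62.6 to 466.3. The strongest, at chrI:9383037-9383310, had replicate scores of 132.0, 266.5 and 65.7 in replicates 1, 2 and 3, and lay 6832 bp downstream of the annotated start of the gene. The 3 point sources at 407.0, 289.9 and 212.5 share 1 interval, so they share replicate values and are not separate detections.

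ell-1, an orthologue of the ELL transcription elongation factors, had all 8 of its regions in a first intron of 14129 bp, with scores from 64.5 to 213.3. Its highest region scored 84.0, 89.7 and 49.3 in replicates 1, 2 and 3. sea-2, a zinc-finger gene known as an autosomal signal in sex determination, had all 8 in a second intron of 10355 bp, from 64.9 to 179.8. The highest of them scored 64.9, 81.6 and 53.4 in the replicates, and the stretch shown above, beside its point source, holds a CT repeat.

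zfp-1, the orthologue of the human chromatin protein AF10, had 7 regions in introns 4 and 9, of 4254 and 3179 bp, with scores from 91.5 to 437.9. Its strongest region, which holds 3 matches to the marked words within 30 bases, counting both strands and overlaps, scored 175.8, 183.1 and 76.2 in replicates 1, 2 and 3. daf-5, a Sno/Ski family gene of the dauer TGF-beta pathway, had 6 regions in a first intron of 14446 bp and 1 in the second, from 69.6 to 383.2. The strongest scored 152.1, 139.5 and 119.9. The host assignment rests on the Ensembl annotation: 6 of the 7 daf-5 regions were not intronic in the RefSeq annotation of the same assembly.

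**Figure D4:**
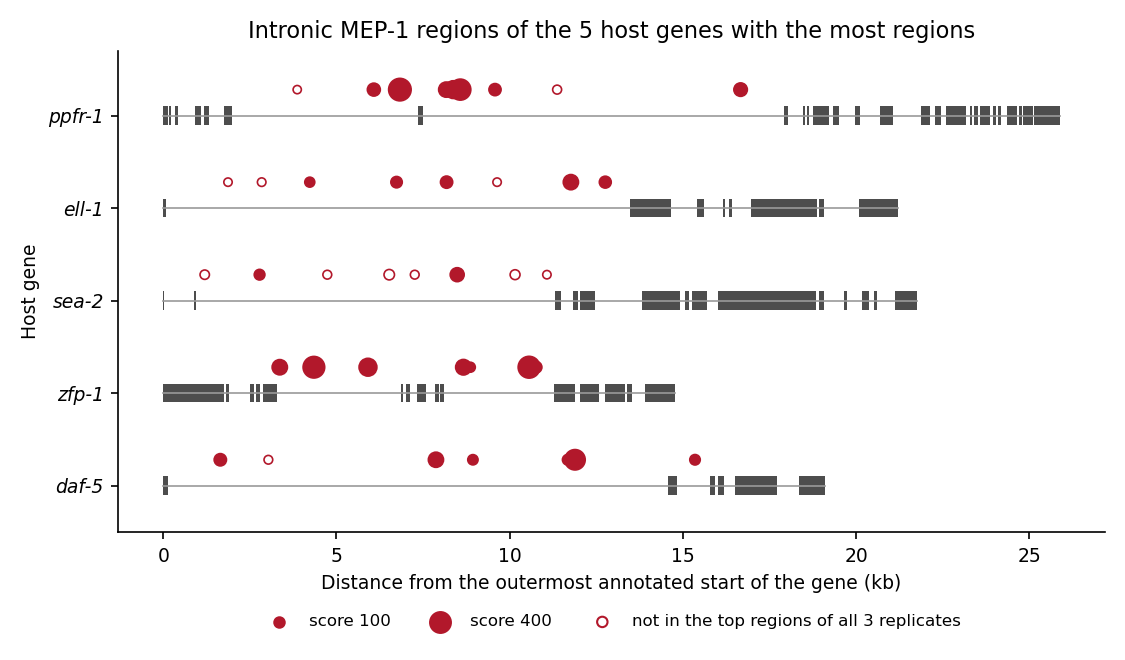
Positions of the intronic regions (circles, area in proportion to the score, open where not found in all 3 replicates) along the 5 genes that held the most, in kb from the outermost annotated start of each gene, with exons as dark boxes. All 8 regions of ell-1, all 8 of sea-2 and 6 of the 7 of daf-5 lie in 1 long intron each, and those of ppfr-1 and zfp-1 in 2.

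The choice of annotation touched a small part of the set. Under RefSeq, 663 of the 691 regions (95.9%) were intronic as well, 27 lay outside every protein-coding gene body and 1 in an exon. All 28 of these lay in first introns in the Ensembl annotation, and without them first introns held 33.8% of regions. RefSeq itself put 695 autosomal regions in introns.

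The 15 highest-scoring regions found in all 3 replicates scored from 393.1 to 551.7. The highest, in intron 4 of Y111B2A.12, had replicate scores of 227.9, 190.3 and 138.2, and stood 77th, 139th and 35th in those lists. The next, in a first intron of T28F4.1, scored 540.9, with 183.9, 255.7 and 103.03 in the replicates, and is among those outside RefSeq gene bodies. In W06H8.6 a region at 511.3 lay in intron 5, of 542 bp. The other hosts above 400 were dhc-4, a dynein heavy chain gene, at 471.9, ppfr-1 at 466.3 and 407.0, epg-9, an autophagy gene, at 456.4, pqn-41, a glutamine-rich protein gene, at 442.4, zfp-1 at 437.9 and 428.9, F58G1.7 at 432.6, unc-108, which encodes a Rab2 GTPase, at 424.8, larp-1, a La-related RNA-binding protein gene, at 420.9, and miz-1 at 411.9.

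pbrm-1, the polybromo subunit of SWI/SNF remodellers, closed this group at 393.1, with 175.2, 171.5 and 45.6 in the replicates. Replicate 3 gave lower values than the other two at all 15, as it did over the whole set, where its median score was 21.6 against 41.4 in replicate 1 and 42.5 in replicate 2. Scores of different lists are not on a common scale, so ranks are the safer comparison. The pbrm-1 region stood 161st, 180th and 782nd, and the larp-1 region stood 283rd, 149th and 73rd in replicates 1, 2 and 3.

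At the other end, the 3 lowest regions lay in ZC328.3, rskd-1 and cmk-1, at 62.4, 62.3 and 62.2. The cmk-1 region, in a calmodulin-dependent kinase gene, was found in replicate 3 alone, with scores of 23.2, 27.2 and 15.4 in the replicates. The longest introns with a region were those of kin-1 (21230 bp), the catalytic subunit gene of protein kinase A, of Y75B7AL.2 (20993 bp) and of lin-1 (20948 bp), an ETS factor of vulval development. Their regions scored 95.2, 62.7 and 146.6, and that of lin-1 alone was found in all 3 replicates.

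The edge of the promoter window set who counted as intronic. Just inside the set, a pod-2 region lay 503 bp upstream of a start at a score of 77.9, and a Y39G8B.1 region lay just over 100 bp downstream of one at 84.6. Just outside it, a region in R166.3 lay 493 bp upstream of the start of R166.2 at 95.2, and a region in mig-38 lay 492 bp upstream of the start of F40F11.3 at 76.4. In all, 329 point sources in introns fell inside a window, with a median score of 105.6.

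Small non-coding RNA genes lay at some of the regions. Windows of the same size at the starts of annotated non-coding genes held 146 of the 691 point sources (21.1%), against 8.21% of eligible bases. The clearest excess was at small nucleolar RNA (snoRNA) genes, whose RNAs guide modification of ribosomal RNA: 37 regions, 5.35%, against 0.236% of eligible bases. The replicates averaged 4.98% ± 0.23 (SD, n = 3), and these 37 had a median score of 190.1. In introns under 500 bp, 22 of 81 regions (27.2%) lay at a snoRNA start, with a replicate mean of 24.9% ± 2.16, against 0.298% of bases. In introns of 2000 bp or more it was 5 of 452 regions (1.11%) against 0.270%. In the upper part of the list by score the snoRNA share was 10.5%.

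The snoRNA regions with the highest scores lay in introns of haf-9, at 363.6, and Y38F2AR.12, at 322.7. The haf-9 region, in intron 5, of 286 bp, scored 136.7, 154.1 and 70.2 in replicates 1, 2 and 3. Both were found in all 3 replicates. By contrast the region at a snoRNA start in hsp-1, an Hsc70 chaperone gene, scored 71.0 and was not found in all 3.

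microRNA gene starts held 10 regions (1.45% against 0.119% of bases; replicate mean 1.48% ± 0.12, SD, n = 3). lin-4, a microRNA that times larval development, lies in intron 9 of F59G1.4, where the region scored 135.5, with 48.2, 66.6 and 23.3 in replicates 1, 2 and 3. mir-71 and mir-2 lie in the long intron 5 of ppfr-1, and their regions scored 135.8 and 167.1. The region at mir-90, in K01F9.2, was the highest of the 10 at 309.2, with 99.1, 122.6 and 85.5 in the replicates. Starts of snRNA genes held 8 regions (1.16% against 0.0955% of bases), with a median score of 186.5. The dhc-4 region, at 471.9, and the glr-2 region, at 202.5, were among them. The 15 regions at piRNA starts were 2.17% of the set, against 4.10% of bases. Whether binding serves the host or the small RNA gene was not tested.

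Genes of development and signalling were compared as lists, with counts only. Over all eligible genes the share of hosts climbed with the amount of eligible intron, at 0.524% of genes with under 1 kb, 2.92% from 1 to 3 kb, 10.4% from 3 to 10 kb and 28.9% above 10 kb. Of 12 heterochronic genes with eligible introns, which time larval cell fates, 5 (41.7%) were hosts, against the 2.77% of all eligible genes. They held 14 regions, or 217 per Mb of their introns against 27.2 per Mb over all eligible genes, and 8 of the 14 were in sea-2. Their introns were long, at 5.37 kb eligible per gene against 1.56 kb over all eligible genes. lin-42, the Period orthologue that times molts, had 3 regions with a highest score of 213.5, and 81.8, 96.6 and 43.9 in replicates 1, 2 and 3. alg-2, an Argonaute gene, ain-2, a GW182-type gene, and lin-29, a zinc-finger factor, had 1 each at 124.2, 117.6 and 96.3.

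Stress response regulators had 9 hosts of 29 (31.0%), at 110.3 regions per Mb and 5.62 kb of eligible intron per gene. daf-16, the FOXO factor of insulin signalling, had 4 regions with a highest score of 234.6, and 102.1, 83.3 and 57.9 in the replicates. hlh-30, the TFEB orthologue, had 3 up to 224.7, and the insulin receptor gene daf-2 had 3 up to 194.1. skn-1, an Nrf factor, had 2 up to 175.6, and let-363, the TOR kinase gene, had 1 at 206.7. The 4 other hosts were zip-2, jnk-1, crh-1 and egl-9, from 68.4 to 143.1; the zip-2 region lies outside RefSeq gene bodies.

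Vulval and Ras signalling genes had 7 hosts of 33 (21.2%), at 35.8 regions per Mb and 5.92 kb per gene. mpk-1, the ERK kinase gene, had a region at 308.6 in a first intron of 8247 bp, with 136.2, 114.6 and 61.3 in the replicates. lag-1, the CSL factor of Notch signalling, had 1 at 243.2. Wnt and TGF-beta genes had 4 hosts of 37 (10.8%), where daf-14, a Smad gene, reached 297.5 beside daf-5. Chromatin and dosage compensation genes had 4 of 33 (12.1%): zfp-1, pbrm-1, let-526 with 6 regions up to 358.5, and dpy-28 at 87.4. Among the DREAM and synMuv genes, 2 of 21 were hosts, gei-4 at 386.9 and the retinoblastoma orthologue lin-35 at 113.3.

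Partners of MEP-1 with NuRD and SUMO genes had 3 hosts of 24 (12.5%; replicates 4.17%, 12.5% and 12.5%), all with scores below the median of the set. pie-1, the germline repressor that associates with MEP-1, had a region in intron 3 at 85.2, with 55.8, 31.2 and 40.5 in the replicates. By overlap of intervals it was found in all 3. Counted by point source in the replicates' own lists, replicate 1 had no intronic region in pie-1, and replicates 2 and 3 had 2 each. ulp-4, a SUMO protease gene, had 2 up to 78.7, and gei-17, a SUMO ligase gene, had 1 at 69.1; neither gene's highest region was found in all 3. pie-1 was also the only host among 52 germline genes.

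Pan-neuronal and synaptic genes had 8 hosts of 32 (25%), at 66.1 regions per Mb and 6.15 kb of eligible intron per gene, and were led by unc-108 and by rab-3, a synaptic vesicle GTPase gene, at 227.7. unc-119 was among them with 3 regions, the highest at 106.6, and replicate scores of 78.3, 13.2 and 33.1 there. The strain carries an unc-119 mutation and an integrated transgene; copies of the gene were not measured, and their part in this value was not tested. Nuclear hormone receptor genes had 12 hosts of 246 (4.88%), led by nhr-19 with 5 regions up to 381.8 and nhr-46 with 3 up to 189.3; nhr-23, which drives molting, had 1 at 139.0.

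Other lists of tissue and adhesion genes had 2 or 3 hosts each in the IDR list, at shares there above the 2.77% of all eligible genes. In replicates 1, 2 and 3 the muscle share was 3.57%, 3.57% and 0%, and the adhesion share 8.11%, 5.41% and 2.70%. The epidermal and intestinal shares stayed above 2.77% in each replicate. Per Mb, muscle and adhesion genes lay below the 27.2 regions over all eligible genes. Muscle genes had 2 of 28 (7.14%; lev-11, tropomyosin, at 94.6 and dys-1, dystrophin, at 67.6) at 16.1 regions per Mb, and cell adhesion and axon guidance genes 3 of 37 (8.11%) at 14.3 regions per Mb although their introns averaged 9.46 kb eligible per gene. sax-7, an L1-type adhesion gene, reached 88.2 and hmr-1, the cadherin gene, 69.6. Epidermal and molting genes had 3 hosts of 39 (7.69%) at 35.5 regions per Mb, nhr-23, vab-10 (a spectraplakin) at 119.6 and myrf-1 at 110.5. Intestinal genes had 2 of 32 (6.25%) at 86.7 regions per Mb, hlh-30 and erm-1 at 62.7. hlh-30 was also the only host of 19 helix-loop-helix genes. glr-2, a glutamate receptor gene, was the only one of 34 ion channel genes, at 202.5, and its point source lay at an snRNA gene start.

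Collagen genes had 2 hosts of 118, col-72 at 139.0 and col-159 at 67.7. Chemoreceptor genes had 1 of 568, srh-2 at 179.3, and 5.19 regions per Mb. No host was found among 15 Hox and Polycomb genes, 45 homeobox ceh genes, 67 cytosolic ribosomal protein genes or the neuropeptide genes. Of the last, 140 were listed, not all of them with eligible introns. The Hox and Polycomb, ceh and neuropeptide lists had 0.035, 0.082 and 0.092 Mb of eligible intron, of 25.4 Mb over all eligible genes. Lists this small could lack hosts through counting error alone at the 2.77% of all eligible genes. Whether they fell below that share was not tested. The ribosomal protein genes had only 0.162 kb of eligible intron each, and replicate 1 alone put a region in 1 of the 15 Hox and Polycomb genes (6.67%).

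**Figure D5:**
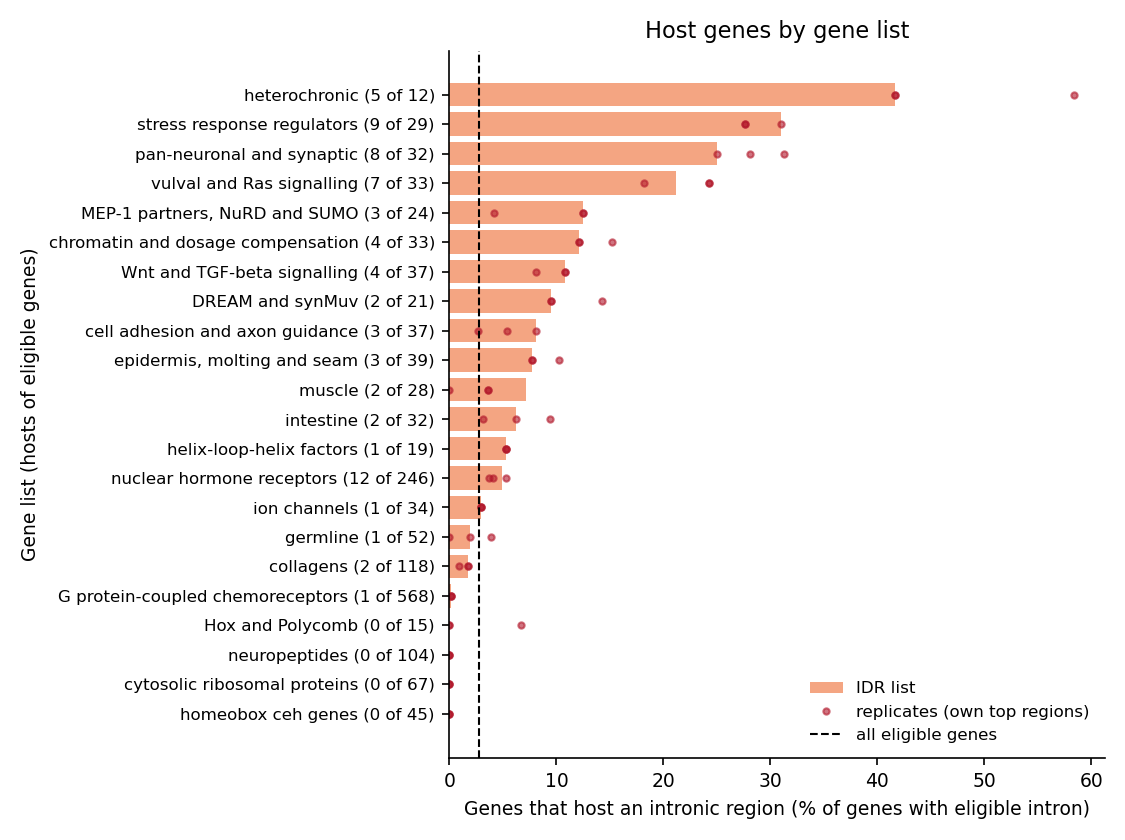
Share of the eligible genes of each list (percent) that host an autosomal intronic region in the IDR list (bars), with the 3 replicates' own regions as points and the share over all eligible genes, 2.77%, as a dashed line. Heterochronic genes (41.7%), stress response regulators (31.0%) and pan-neuronal genes (25%) stand highest, and 4 lists are at 0.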

How the data were processed

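The authors deposited, per the text description with the files, region lists for each replicate and for the pooled replicates, called with a control, and an optimal IDR list made from them. Each list gives a score per region, the signal value as the authors' caller wrote it, whose scale is not stated. The caller, its settings, the aligner and the threshold were not given in the sources used here, the control was not analysed here, and read depth is unknown, so precision rests on the 3 replicates. Lists on build ce10 were not used, since no annotation of that build was at hand.

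Point sources on build ce11 were placed on Ensembl release 115 (WBcel235) with Python 3.11.15, NumPy 2.4.6, pandas 2.3.3, SciPy 1.17.1 and Matplotlib 3.10.9, and coordinates are 1-based. Hosts were assigned by the shortest gene body and the transcript of longest span. A replicate's own regions are its 5167 highest distinct ones. A replicate score is the highest of that replicate's regions overlapping the interval, so rows of 1 interval share it. Words were counted on both strands.

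Named are the hosts of the 15 highest regions found in all 3 replicates, the 5 genes with most regions, the 3 longest introns, the 3 lowest scores, regions at the window's edge and up to 2 leading hosts of each of 22 gene lists (7 entries matched no gene); other hosts, the snoRNA and microRNA genes among them, were chosen after their values were seen. The members and lists were chosen with earlier results of these data known. Alternatives varied the window, the placement of the region, the score cut, duplicate intervals, the replicates, the pooled list, the intron rank, the start used and the overlap. Those on non-coding start windows and the RefSeq annotation, and the length, chromosome, word and snoRNA results, were chosen after seeing the data. The placement and the test were tested on simulated data.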

Additional observations from a re-analysis of the deposited data

How the results depend on the processing

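Of 142 values under alternatives, 45 belong to results that had a test. The test was not rerun on them, and only their direction was compared with that of the main value. All 45 kept it, but most alternatives recut the same list, so they are not independent. The sizes of these values moved: the median log2 score difference from intergenic regions lay between −0.02 (found in all 3 replicates) and −0.21 (narrow window), and that from promoter regions between −0.18 (upper part by score) and −0.37 (outside non-coding start windows). Of the values for results with no test, 61 moved by more than the SD between replicates or, for the share found in all 3, out of its 95% interval. No paired analysis was possible because there is 1 group. Leaving out a replicate kept the regions found in both others, a smaller and stricter set; the cause of a change was not tested unless named.

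The wide promoter window (1000 bp upstream to 200 bp downstream) gave an intronic share of 13.4%, a first-intron share of 33.9%, a median intron length of 3910 bp, 45.9% of hosts bound at a promoter and 5.77% of regions at snoRNA starts. The narrow one (200 bp upstream) gave 19.9%, 38.9%, 3179 bp, 19.3% and 4.98%, a length ratio of 6.79 and a middle to outer ratio of 2.22. Whole regions outside exons gave 13.3%, 38.7%, 4375 bp, 33.1% and 3.65%, a length ratio of 42.8, a middle to outer ratio of 2.05 and GAGAGA in 40.3%. The upper part by score gave an intronic share of 13.5%, 94.9% found in all 3 replicates, 17.5% of hosts bound, a middle to outer ratio of 2.205, GAGAGA in 42.2% and snoRNA starts at 10.5%. Regions found in all 3 replicates gave 14.7%, first introns 40.9%, 3747 bp, 18.8% of hosts bound, ratios of 9.33 and 2.31, GAGAGA in 39.8% and snoRNA starts at 7.63%. Outside non-coding start windows the values were 13.2%, 38.3%, 3615 bp, 48.8% found in all 3, 34.2% of hosts bound, and ratios of 11.2 and 2.07. The lowest rank gave first introns 53.5%, the outermost start 19.6% of hosts bound, and an overlap of at least 0.5 of the region 43.4% found in all 3. Among eligible genes, the share bound at a promoter also changed. It was 15.4% with the wide window, 7.11% with the narrow one and 12.6% with whole regions outside exons. It was 7.60% in the upper part by score, 8.58% for regions found in all 3 replicates and 12.5% outside non-coding start windows. For all autosomal regions, the shares found in all 3 were not counted under these settings.

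Without 1 replicate each, the intronic share was 15.35% to 15.41%, the first-intron share 37.9% to 40.7%, the median length 3486.5 to 3899 bp, the hosts bound 20% to 23.4%, the length ratio 7.78 to 10.4, the middle to outer ratio 2.14 to 2.39, GAGAGA 37.5% to 38.6% and snoRNA starts 6.74% to 7.28%. Of eligible genes, 9.11% to 9.81% were bound at a promoter in these sets.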

Other observations

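Further words were counted in the windows of the intronic regions. The GATA word TGATAAG stood in 5.35% of their windows against 1.16% of eligible intron windows, with 5.28%, 5.54% and 4.86% in replicates 1, 2 and 3. The E-box word CACGTG stood in 6.66% against 1.38%, with 6.49%, 5.54% and 4.71% in the replicates. The AP-1 word TGACTCA was in 1.01% against 0.689%. Words of A and T were scarcer: a run of 8 T was in 8.39% against 20.3%, and the cell cycle homology word TTTGAA in 11.3% against 35.5%. Intergenic and promoter regions differed from eligible introns in the same direction for all of these words. Intergenic regions had TGATAAG in 5.85%, CACGTG in 4.74%, TGACTCA in 1.26%, the run of T in 7.98% and TTTGAA in 14.3%. Promoter regions had 3.12%, 3.89%, 1.26%, 6.03% and 19.1% in that order. The windows also differ in base composition, and its part in these shares was not tested.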
